A study of Mus musculus with 14 samples.

Results

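The mouse keratin genes sit in a pair of clusters, the type I locus on chromosome 11 and the type II locus on chromosome 15. Open chromatin there was read from ATAC-seq, which counts where the transposase Tn5 can cut DNA, in adjoining windows of 500 bases. The loci were chosen by position (mm10), as the windows that start from 99300001 to 100299501 on chromosome 11 and from 101340001 to 102039501 on chromosome 15, and held 3400 of the 5267565 windows counted on chromosomes 1 to 19 and X, 2000 in the type I and 1400 in the type II locus. Levels are CPM, that is counts per 1000000 of a library's total over all those windows. The annotation places 115 genes in the loci, of which 52 encode keratins and 23 encode keratin-associated proteins.

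Keratins are filament proteins that assemble from a type I (acidic) and a type II (basic) chain, so each cell type makes matching members of both loci. Basal epidermal cells make Krt5 with Krt14, and cells that leave the basal layer to differentiate switch to Krt1 with Krt10 and, in the mouse, Krt77. The hair follicle makes its own set: Krt15 in the bulge, where its stem cells rest, Krt75 and Krt6a in the companion layer, Krt25 to Krt28 and Krt71 to Krt74 in the inner root sheath, and hair keratins with keratin-associated proteins in the hair shaft.

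The cells came from back skin of female mice, digested with trypsin and sorted by flow cytometry as lineage-negative cells with high integrin α6. Epidermal stem cells (EpdSCs) were sorted as CD34-negative and Sca1-positive, and hair follicle stem cells (HFSCs) as CD34-positive and Sca1-negative. The mice were 24 months old (aged) or 2 months old (young), no genetic change or treatment is given in the labels, and the strain is given under 2 names, so none is stated here. Each population and age had 1 ATAC library and 2 RNA-seq libraries, and since the labels name no separate animals behind the paired RNA libraries, p-values reflect library-to-library spread that may be technical. Sorted populations are bulk samples, in which fewer cells with an open site and less opening per cell cannot be told apart.

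The ATAC libraries held 22933001 counts in aged EpdSCs, 8243611 in aged HFSCs, 37322834 in young EpdSCs and 26169738 in young HFSCs. The aged HFSC library stood apart: 8.19% of its counts fell in windows with at least 4 CPM, against 27.1% to 29.6% in the other 3 libraries. Results that rest on it are therefore given beside the young pair, and population differences are also given after scaling by composition factors (TMM), which differed between libraries from 0.619 in aged HFSCs to 1.29 in aged EpdSCs. In RNA (25126808 to 35905505 counts per library, the total behind its CPM) the sort markers matched the labels: Cd34 was at 0.322 to 1.84 CPM in EpdSCs and 1147 to 1886 CPM in HFSCs, and Ly6a, which encodes Sca1, was at 135 to 206 CPM in EpdSCs and 0.417 to 1.97 CPM in HFSCs. The summed fibroblast markers (4 genes, none at 0) reached 0.863 to 3.52 CPM in the EpdSC and 51.2 to 87.3 CPM in the HFSC libraries. Most of the HFSC sum was Col1a2, at 44.3 to 79.6 CPM. Col1a1 and Pdgfra were also higher in HFSCs at both ages. Col3a1 was higher in aged HFSCs but not in young ones (0.347 and 0.318 CPM, against 0.362 and 0.434 CPM in young EpdSCs). The melanocyte markers (4 genes, Tyr and Mlana at 0 in 1 young EpdSC library) reached 2.27 to 4.70 CPM in the EpdSC and 13.4 to 25.6 CPM in the HFSC libraries. The immune markers (4 genes, none at 0) summed to 7.67 to 15.8 CPM in the EpdSC and 1.98 to 6.85 CPM in the HFSC libraries. Most of the EpdSC sum was Cd74, at 5.68 to 13.2 CPM. Cd207 was also higher in EpdSCs, and Cd3e overlapped. Ptprc overlapped in young mice and was higher in aged HFSCs (2.12 and 1.70 CPM, against 1.20 and 1.18 CPM in aged EpdSCs). The part of fibroblasts, melanocytes and immune cells in the results was not tested.

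Promoters of 5 genes are shown as examples. They are Krt5, open in every library, Krt10 and Krt77, with more accessible start windows and more RNA in EpdSCs, and Krt75 and Krtap17-1, with less RNA in EpdSCs. Each run covers 250 bases before and 50 bases after the annotated start on the minus strand, from RefSeq (GRCm38.p6), 5′ to 3′. The positions are chr15:101712856-101713155 for Krt5, chr11:99389315-99389614 for Krt10, chr15:101869656-101869955 for Krt77, chr15:101573855-101574154 for Krt75 and chr11:99993945-99994244 for Krtap17-1. Capitals mark the TATA box TATAAA and the KLF core CACCC, searched on both strands, so that CACCC on the other strand reads GGGTG.
Krt5: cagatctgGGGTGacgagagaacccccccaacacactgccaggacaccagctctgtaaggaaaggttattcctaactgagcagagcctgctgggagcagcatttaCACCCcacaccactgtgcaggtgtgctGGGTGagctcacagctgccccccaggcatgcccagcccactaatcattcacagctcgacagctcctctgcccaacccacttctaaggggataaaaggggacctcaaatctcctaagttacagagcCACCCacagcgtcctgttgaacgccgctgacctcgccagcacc
Krt10: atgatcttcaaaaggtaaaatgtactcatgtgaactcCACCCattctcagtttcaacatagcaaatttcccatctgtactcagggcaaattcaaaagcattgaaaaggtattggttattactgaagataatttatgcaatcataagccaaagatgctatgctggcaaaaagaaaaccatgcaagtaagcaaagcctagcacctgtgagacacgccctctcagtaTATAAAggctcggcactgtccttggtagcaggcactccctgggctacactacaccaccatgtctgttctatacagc
Krt77: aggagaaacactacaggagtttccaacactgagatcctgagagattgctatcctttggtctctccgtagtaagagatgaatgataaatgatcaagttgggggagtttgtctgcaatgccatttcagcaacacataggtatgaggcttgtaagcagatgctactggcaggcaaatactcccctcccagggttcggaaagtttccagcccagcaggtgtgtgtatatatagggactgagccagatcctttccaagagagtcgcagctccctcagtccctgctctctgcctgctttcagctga
Krt75: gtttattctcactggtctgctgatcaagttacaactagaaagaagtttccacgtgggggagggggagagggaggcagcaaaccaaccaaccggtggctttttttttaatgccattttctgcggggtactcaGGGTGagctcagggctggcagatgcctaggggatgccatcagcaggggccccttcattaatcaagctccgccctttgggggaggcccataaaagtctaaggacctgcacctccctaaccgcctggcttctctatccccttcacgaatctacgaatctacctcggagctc
Krtap17-1: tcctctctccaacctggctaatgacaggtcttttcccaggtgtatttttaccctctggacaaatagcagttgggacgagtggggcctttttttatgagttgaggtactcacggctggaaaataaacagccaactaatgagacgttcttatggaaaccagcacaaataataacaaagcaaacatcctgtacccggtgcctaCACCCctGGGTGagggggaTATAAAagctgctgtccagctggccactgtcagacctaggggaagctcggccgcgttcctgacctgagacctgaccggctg

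TATAAA lay 26 bases before the start of Krt10 and 31 bases before that of Krtap17-1, and 13.6% of 32851 RefSeq mouse promoters of the same length hold it. CACCC matched 4 times in Krt5, 2 times in Krtap17-1, once each in Krt10 and Krt75 and not in Krt77, against 57.5% of all promoters with a match. The AP-1 sequence TGANTCA matched none of the 5, and 7.81% of all promoters hold it. The degenerate p63 motif, searched on both strands, matched in Krt5 alone, 95 bases before the start, and in 8.36% of all promoters. A match is a description of letters and not a binding site.

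Keratin loci held open windows about as often in aged as in young EpdSCs, and fewer in HFSCs. A window with at least 4 CPM, far above the genome's mean of 0.190 CPM per window, was taken as open. Of the 3400 windows, 110 were open in aged EpdSCs, 22 in aged HFSCs, 110 in young EpdSCs and 82 in young HFSCs. The share of the loci was 3.24% in aged EpdSCs, 0.647% in aged HFSCs, 3.24% in young EpdSCs and 2.41% in young HFSCs, and the share of the genome was 0.735% in aged EpdSCs, 0.2504% in aged HFSCs, 0.711% in young EpdSCs and 0.636% in young HFSCs. The share was higher in the loci than in the genome in every library, and lowest in aged HFSCs in both.

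In any library 152 windows were open, 84 in the type I and 68 in the type II locus, and they joined into 73 regions. Of these windows 69 were open in an EpdSC library and in no HFSC library, 26 the other way, and 17 in all 4 libraries. These classes were not counted over the genome, where aged HFSCs also had the smallest open share (0.2504%). Whether they are particular to the loci was therefore not tested. The balance moved with scaling: 97 of the 152 were higher in EpdSCs at both ages and 20 lower by library totals, against 73 and 54 after composition scaling. The share of these directions over the genome was not counted. Across the genome's windows open in either library of a pair, median log2 EpdSC over HFSC by library totals was 1.29 aged and 0.04 young. After composition scaling it was -0.12 aged and -0.39 young. Counted from the same libraries, 4.47% of the loci's windows and 1.014% of the genome's were open in any of them.

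**Figure D1:**
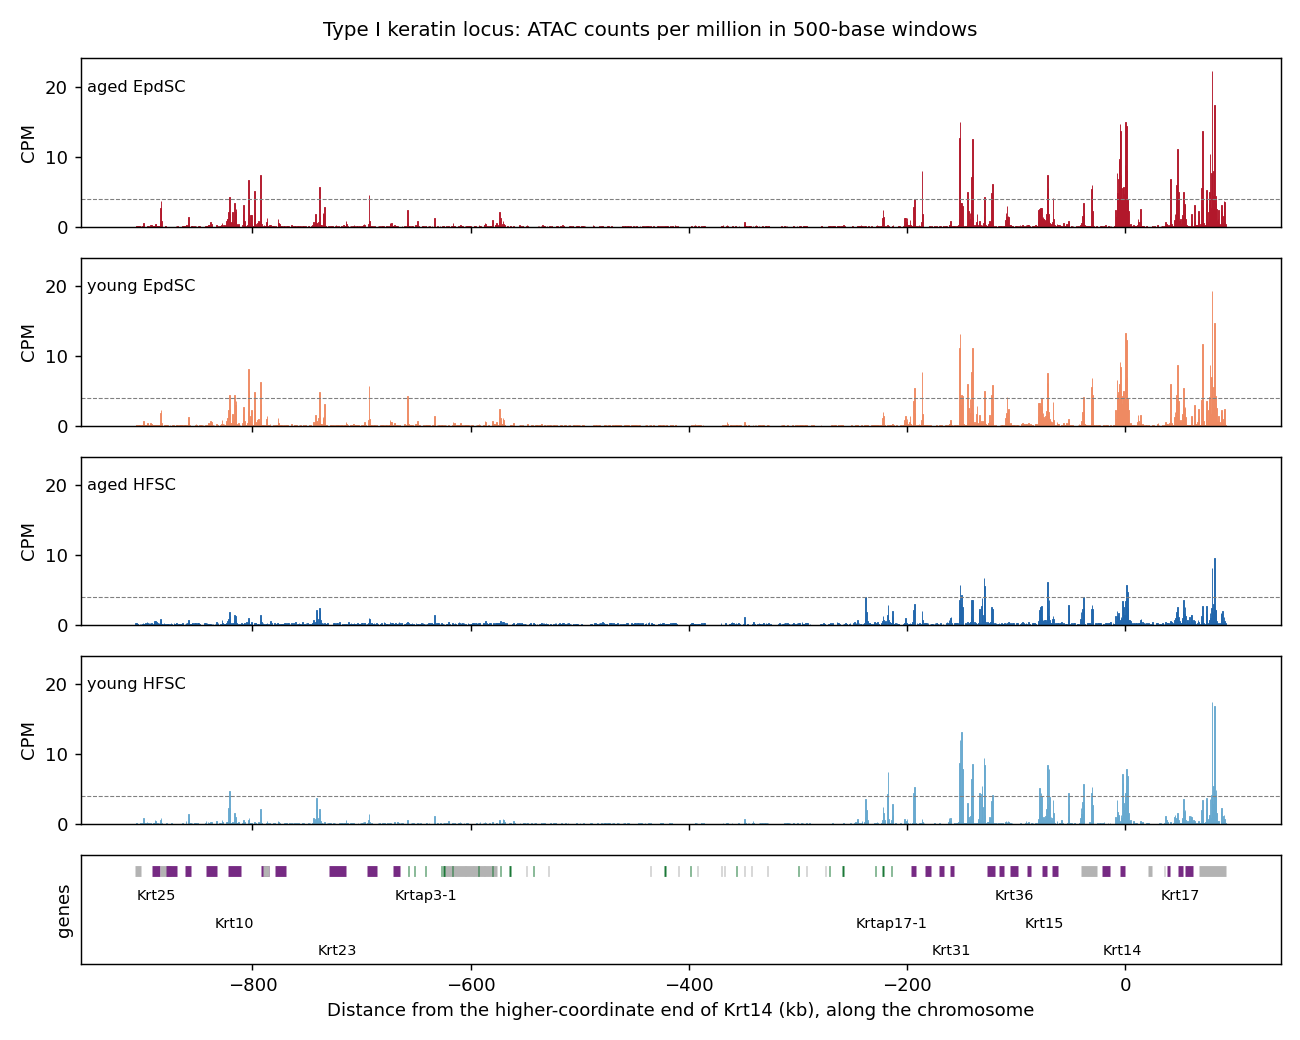
ATAC CPM in 500-base windows across the type I keratin locus, 1 panel per library, against distance in kb from the higher-coordinate end of Krt14; the dashed line marks 4 CPM and the bottom panel marks genes (purple keratins, green keratin-associated proteins, grey others). The stretch of keratin-associated protein genes is almost bare, and the largest peaks, up to 22.2 CPM in aged EpdSCs, lie at the right end.

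Most of the 10 regions with the highest levels were open in every library. The highest, chr11:100287001-100287500 within the gene Gm14206 beside Krt42, held 22.2 CPM in aged EpdSCs, 8.13 CPM in aged HFSCs, 19.2 CPM in young EpdSCs and 17.5 CPM in young HFSCs. In the type II locus chr15:101364501-101365000, within Krt80 and the overlapping gene Gm35853, held 12.6 CPM in aged EpdSCs, 4.49 CPM in aged HFSCs, 14.6 CPM in young EpdSCs and 17.2 CPM in young HFSCs. Both were lowest in the aged HFSC library, and neither was called between populations after composition scaling (log2 EpdSC over HFSC 0.09, SE 0.311, and -0.14, SE 0.288; edgeR adjusted p = 0.826 and 0.711).

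The window that holds the start of Krt5, the type II keratin of basal cells, belonged to the same kind. It held 9.85 CPM in aged EpdSCs, 5.94 CPM in aged HFSCs, 9.67 CPM in young EpdSCs and 11.3 CPM in young HFSCs. The young HFSC library was the highest and the log2 population difference was -0.43 (SE 0.261, edgeR adjusted p = 0.163). The adjoining window before the start, chr15:101713001-101713500, was called lower in EpdSCs (-0.62, SE 0.260, edgeR adjusted p = 0.0355). It held 8.72 CPM in aged EpdSCs, 5.94 CPM in aged HFSCs, 8.92 CPM in young EpdSCs and 12.0 CPM in young HFSCs. By library totals it was thus lower in the young pair only. The second region within Gm14206 also had a window open in every library, chr11:100289001-100289500, which held 17.3 CPM in aged EpdSCs, 9.58 CPM in aged HFSCs, 14.7 CPM in young EpdSCs and 16.8 CPM in young HFSCs.

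Other windows open in all 4 libraries lay between Krt31 and Krt32, between Krt74 and Krt72 and within Krt78. The first, chr11:100056001-100056500, held 14.9 CPM in aged EpdSCs, 5.70 CPM in aged HFSCs, 13.0 CPM in young EpdSCs and 12.0 CPM in young HFSCs. The second, chr15:101772501-101773000, held 11.9 CPM in aged EpdSCs, 7.40 CPM in aged HFSCs, 11.0 CPM in young EpdSCs and 10.0 CPM in young HFSCs. The third, chr15:101984001-101984500, held 13.3 CPM in aged EpdSCs, 7.04 CPM in aged HFSCs, 11.1 CPM in young EpdSCs and 12.3 CPM in young HFSCs. All 3 were lowest in the aged HFSC library, and so was a window between Krt31 and Krt32 that was open in the other 3 libraries only, chr11:100067501-100068000, with 12.6 CPM in aged EpdSCs, 3.52 CPM in aged HFSCs, 11.1 CPM in young EpdSCs and 8.64 CPM in young HFSCs.

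The open windows were spread unevenly among gene groups. The block of keratin-associated protein genes, which crosslink hair keratins in the shaft, spans 443.9 kb and had 3 open windows of 888, with a mean of 0.0761 CPM per window in aged EpdSCs, 0.128 CPM in aged HFSCs, 0.0866 CPM in young EpdSCs and 0.0973 CPM in young HFSCs. The longest stretch without an open window ran over 419.5 kb and 40 genes (chr11:99550001-99969500), with no window above 2.49 CPM. In the block, 8.90% of windows held no count in any library, against 8.11% across the genome. Within the type I locus such windows were concentrated there, since the block held 79 of the locus's 80. Whether reads could be mapped to these windows was not tested, so their lack of counts cannot be read as closed chromatin.

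At the other end of the range, the interval from Krt9 to Krt14 had 15 open windows of 43. Its mean was 3.10 CPM per window in aged EpdSCs, 0.753 CPM in aged HFSCs, 2.31 CPM in young EpdSCs and 0.932 CPM in young HFSCs, so both EpdSC libraries stood above both HFSC libraries. The hair keratin block Krt33a to Krt36 had 21 open windows of 197, or 10.7%. The inner root sheath genes Krt25 to Krt28 had no open window of 119, and the pair Krt8 and Krt18, keratins of simple epithelia, had 1 of 72.

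Gene ends were read next. The window at the annotated start, or the highest window within 500 bases of either end where no start was listed (82 of 115 genes had one), was open in any library for 13 genes, none of them a hair keratin despite the open windows of that block. Of them 9 were keratins: Krt14, Krt15, Krt16, Krt17 and Krt19 among 13 epithelial type I genes, and Krt1, Krt5, Krt6a and Krt80 among 14 epithelial type II genes. Of these 9, Krt5 and Krt14 were open at an annotated start and 7 through the highest window near an end, while 21 of the 23 keratin-associated protein genes and 8 of the 9 inner root sheath or companion layer keratins had a listed start, so the classes were partly read by different rules. The listed start of Krt14 lies within the gene, so the window read there is not the one at its higher-coordinate end described below. None of 15 hair keratins, 9 inner root sheath or companion layer keratins and 23 keratin-associated protein genes had an open window by these rules, and the medians of their mean levels were 0.0932, 0.149 and 0.0903 CPM, against 0.501 CPM in the epithelial type I and 0.381 CPM in the type II class. With the highest window near either end for every gene, a rule added after seeing the data, the count stayed at 5 of 13 and 4 of 14 in the epithelial classes and at 0 among hair keratins and inner root sheath or companion layer keratins, and was 1 of 23 among keratin-associated protein genes (Krtap3-3).

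**Figure D2:**
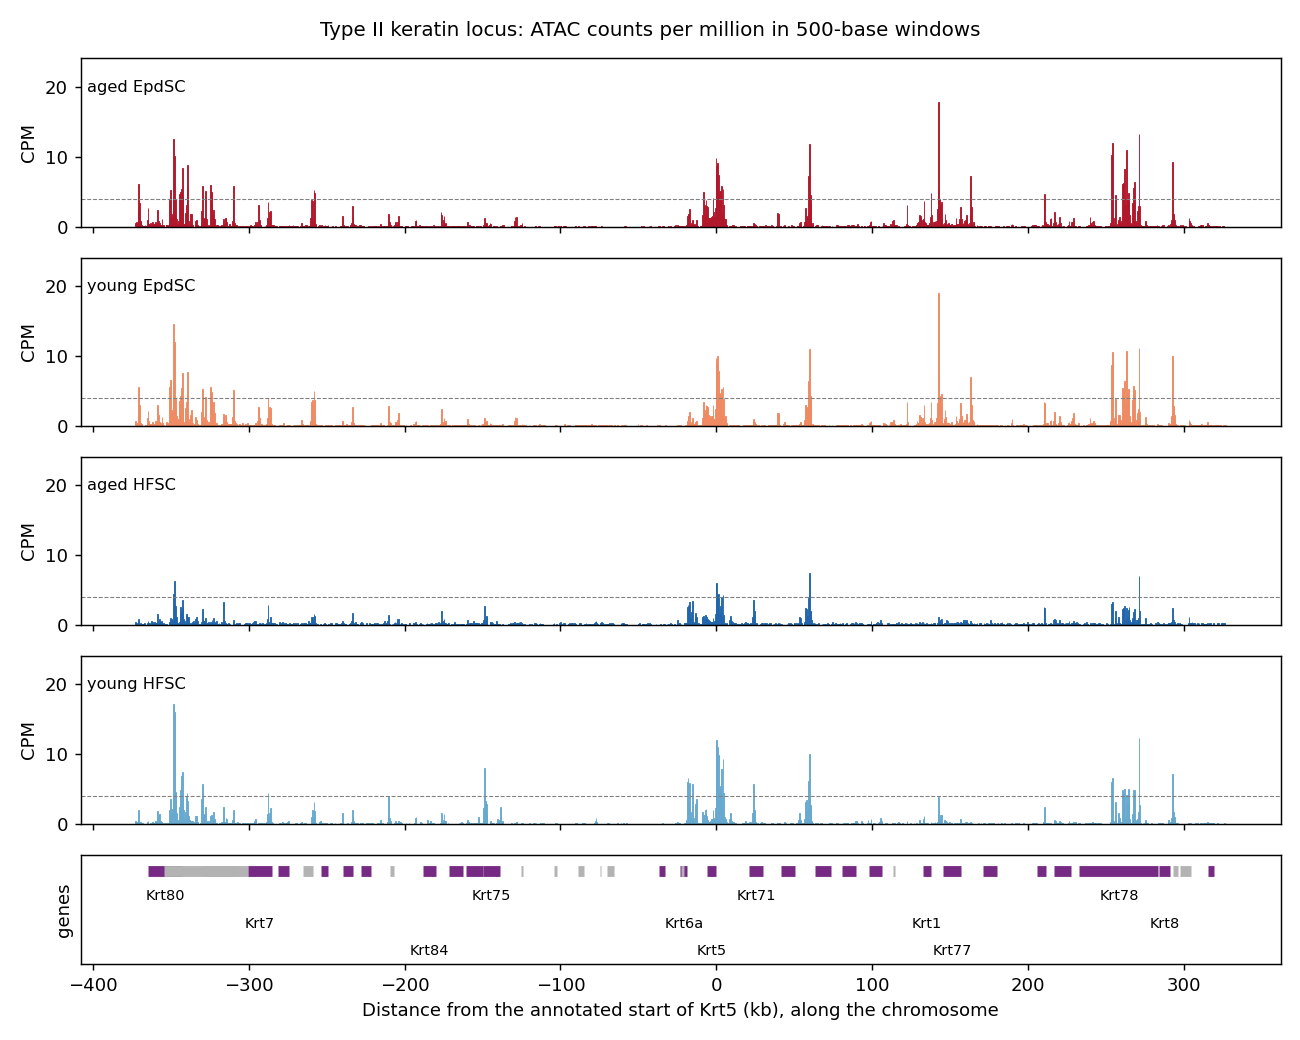
ATAC CPM in 500-base windows across the type II keratin locus, 1 panel per library, against distance in kb from the annotated start of Krt5; the dashed line marks 4 CPM and the bottom panel marks genes. The windows between Krt1 and Krt77 reach 17.8 and 18.996 CPM in the aged and young EpdSC libraries, against 1.21 and 3.90 CPM in the aged and young HFSC libraries.

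To ask which windows differed between the stem cell populations over the ages together, the 4 libraries were fitted with terms for age and population. The test was edgeR quasi-likelihood over 129189 windows with a mean of at least 1 CPM. A call is for the shared difference and does not require that the pair of each age showed it. Of the loci's 3400 windows 322 passed that filter and 103 were more accessible in EpdSCs at an adjusted p under 0.05 (26.2% of all windows tested were), while 56 were less accessible (24.5% of all). Without adjustment, 174 had a p under 0.05 (55.4% of all). The median log2 difference was 0.25 over these members and 0.01 over all windows. The fit has 1 residual degree of freedom and borrows the spread from the other windows, so the library values carry the result.

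Each pair of libraries was also read on its own, without a test, among windows that reached 4 CPM in either of its libraries. In the aged pair 37 of 115 windows were at least 4-fold higher in EpdSCs (26.0% of all such windows) and 2 lower (4.07%), and after composition scaling 8 of 109 were higher (6.32%) and 11 lower (16.0%). In the young pair 18 of 136 were higher (12.4%) and 11 lower (13.8%), and after composition scaling 13 of 110 were higher (8.14%) and 12 lower (17.3%). The share of keratin windows that were higher was near that of the genome in the young pair by library totals (13.2%) and in the aged pair after composition scaling, and in the type II locus of the young pair it was 8.33% by library totals.

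By library values alone, 19 of the 152 open windows were at least 4-fold higher in the EpdSC library at both ages (12.7% of all open windows) and 7 were at least 4-fold lower (8.97% of all). After composition scaling, 125 windows were open, of which 8 were higher (4.86% of all) and 11 lower (16.0% of all). The balance between directions therefore depended on the scaling, since library totals gave the median tested window of the genome a log2 population difference of 0.63 in place of 0.01, a move of 0.6135. The windows of the 16 regions with the largest called differences, 8 in each direction, kept their direction under both scalings.

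The largest difference towards EpdSCs lay beside Krt14, the type I partner of Krt5. The window chr11:100202501-100203000, 162 bases below the lower-coordinate end of Krt14, held 14.7 CPM in aged EpdSCs, 0.728 CPM in aged HFSCs, 9.14 CPM in young EpdSCs and 0.229 CPM in young HFSCs. Both HFSC libraries were under 1 CPM, and the EpdSC libraries did not overlap with them. The ratio was 18.7-fold in the aged pair (95% counting interval 3.20 to 5.79 on the log2 scale) and 36.8-fold in the young pair (4.18 to 6.77), and the fitted log2 difference was 4.32 (SE 0.369, edgeR adjusted p = 4.87e-30).

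This window belonged to an open region of 9 windows, chr11:100200001-100204500, all 9 of them called higher in EpdSCs (26.2% of all windows tested were). A second region of 10 windows followed after a gap of 1 window, chr11:100205001-100210000, over most of Krt14 and the sequence beyond its higher-coordinate end. There the window at that end, chr11:100207501-100208000, held 14.96 CPM in aged EpdSCs, 3.40 CPM in aged HFSCs, 13.3 CPM in young EpdSCs and 4.39 CPM in young HFSCs, a log2 difference of 1.23 (SE 0.272, edgeR adjusted p = 2.47e-05). Both HFSC libraries were thus above 3 CPM at this end and under 1 CPM at the other.

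Within the same second region, windows with the opposite difference were found. The window chr11:100209501-100210000 held 3.92 CPM in aged EpdSCs, 4.73 CPM in aged HFSCs, 4.02 CPM in young EpdSCs and 6.92 CPM in young HFSCs, a log2 difference of -1.16 (SE 0.245, edgeR adjusted p = 8.92e-06). The window chr11:100205001-100205500 inside Krt14 was also called lower (-0.76, SE 0.246, edgeR adjusted p = 0.00511), but by library totals it was lower only in the young pair, with 4.29 CPM in young EpdSCs and 7.11 CPM in young HFSCs, and not in the aged pair, with 5.49 CPM in aged EpdSCs and 3.40 CPM in aged HFSCs.

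**Figure D3:**
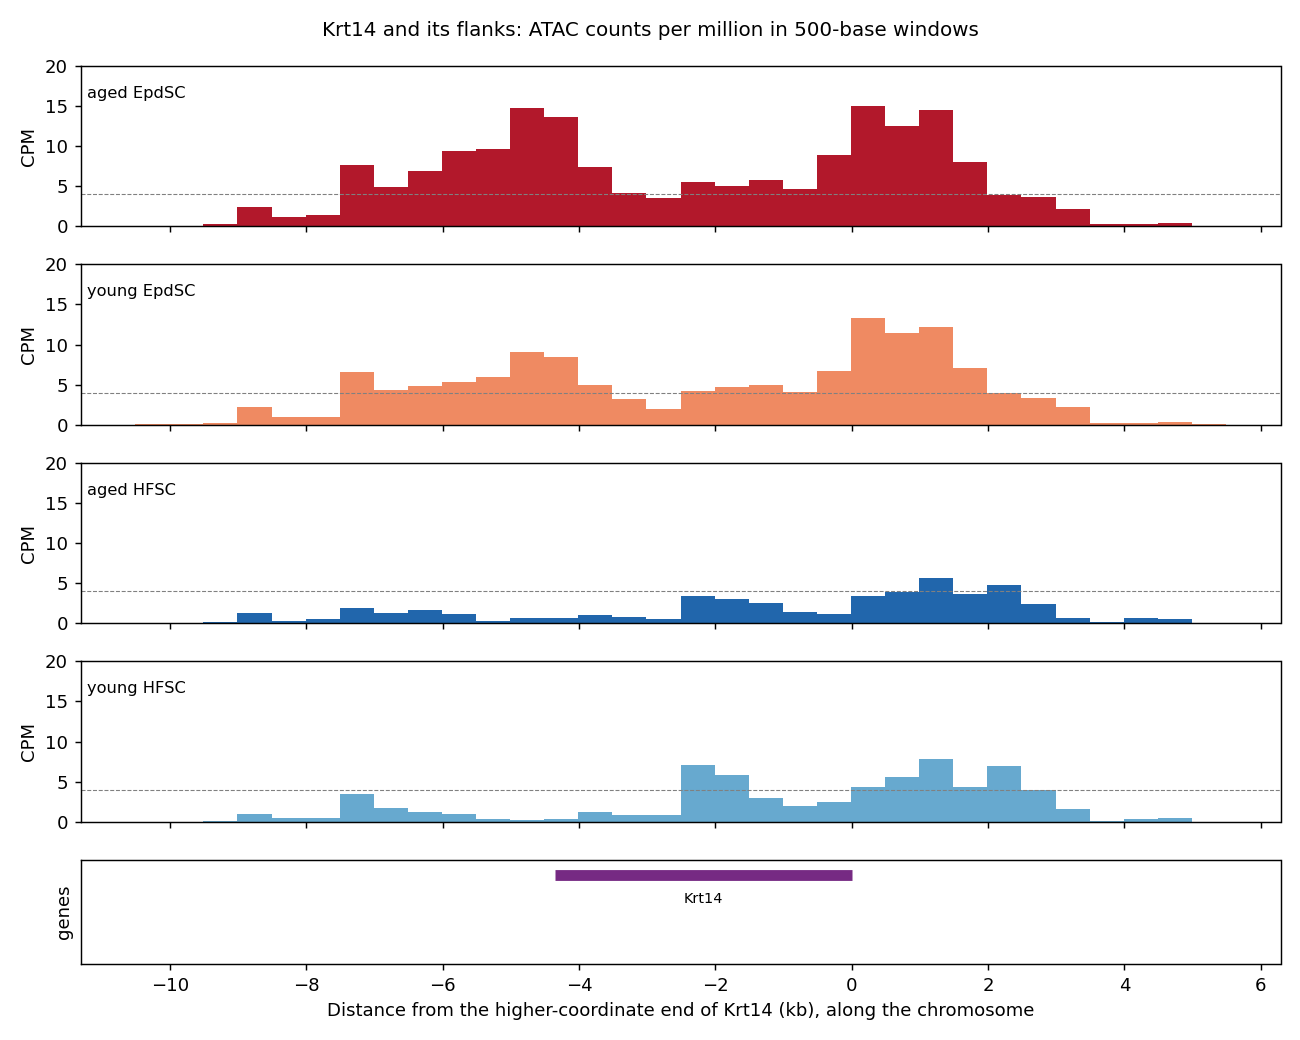
ATAC CPM in 500-base windows around Krt14, 1 panel per library on a common axis, against distance in kb from the higher-coordinate end of the gene, which the purple bar marks; the dashed line marks 4 CPM. The peak just below the lower-coordinate end stands at 14.7 and 9.14 CPM in the aged and young EpdSC libraries and at 0.728 and 0.229 CPM in the aged and young HFSC libraries, while the peak at the other end is present in all 4.

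Large differences towards EpdSCs were also found beside genes of the suprabasal programme. Between Krt1, the suprabasal type II keratin, and Krt77, chr15:101855501-101856000 held 17.8 CPM in aged EpdSCs, 1.21 CPM in aged HFSCs, 18.996 CPM in young EpdSCs and 3.90 CPM in young HFSCs (log2 difference 2.24, SE 0.302, edgeR adjusted p = 1.30e-12). The end of Krt1 itself (chr15:101850501-101851000) was lower in level, with 4.80 CPM in aged EpdSCs, 0.243 CPM in aged HFSCs, 3.48 CPM in young EpdSCs and 0.268 CPM in young HFSCs (3.36, SE 0.461). Between Krt77 and Krt76, chr15:101876001-101876500 held 7.33 CPM in aged EpdSCs, 0.606 CPM in aged HFSCs, 7.02 CPM in young EpdSCs and 0.306 CPM in young HFSCs (3.69, SE 0.370).

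Of the 15 tested windows between Krt2 and Krt76, a stretch that holds Krt1 and Krt77, 14 were called higher and none lower, against 26.2% and 24.5% of all windows tested. With library totals in place of composition factors 15 were higher, and 28.2% of all windows tested were higher and 12.5% lower. In the type I locus, 13 of 22 tested windows between Krt10 and Krt23 were called higher and 2 lower (15 and 2 with library totals). The largest lay between Krt10, the partner of Krt1, and Krt12, at chr11:99409001-99409500, with 5.06 CPM in aged EpdSCs, 0.243 CPM in aged HFSCs, 4.85 CPM in young EpdSCs and 0.344 CPM in young HFSCs (3.48, SE 0.416). A neighbour at chr11:99403501-99404000 held 6.67 CPM in aged EpdSCs, 0.970 CPM in aged HFSCs, 8.09 CPM in young EpdSCs and 0.650 CPM in young HFSCs (2.86, SE 0.328).

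The windows at the starts of Krt10 and Krt77 were lower in level. The window at the Krt10 start held 2.09 CPM in aged EpdSCs, 0.243 CPM in aged HFSCs, 1.66 CPM in young EpdSCs and 0.268 CPM in young HFSCs (log2 difference 2.26, SE 0.589, edgeR adjusted p = 0.000404). That of Krt77 held 2.83 CPM in aged EpdSCs, 0.485 CPM in aged HFSCs, 3.27 CPM in young EpdSCs and 0.688 CPM in young HFSCs (1.84, SE 0.422, edgeR adjusted p = 4.74e-05). Neither reached 4 CPM in any library, and in both the EpdSC libraries exceeded the HFSC libraries.

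The 3 further windows among the 8 regions with the largest EpdSC excess lay at other genes. One sat 99 bases above the end of Krt16, a keratin induced by stress and wounding (chr11:100249001-100249500), with 6.89 CPM in aged EpdSCs, 0.606 CPM in aged HFSCs, 6.03 CPM in young EpdSCs and 0.344 CPM in young HFSCs (3.40, SE 0.370). One lay between the hair keratin genes Krt35 and Krt36 (chr11:100099001-100099500; 3.05 CPM in aged EpdSCs, 0.243 CPM in aged HFSCs, 4.10 CPM in young EpdSCs and 0.306 CPM in young HFSCs; 3.27, SE 0.477) and one 132 bases from Krtap3-3 (chr11:99549501-99550000; 2.40 CPM in aged EpdSCs, 0.485 CPM in aged HFSCs, 4.26 CPM in young EpdSCs and 0.535 CPM in young HFSCs; 2.36, SE 0.432). EpdSC-accessible chromatin was therefore not limited to the epidermal genes of the loci.

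The largest differences towards HFSCs lay among the genes of the hair shaft. Between Krtap16-1 and Krtap17-1, chr11:99990001-99990500 held 0.174 CPM in aged EpdSCs, 2.91 CPM in aged HFSCs, 0.161 CPM in young EpdSCs and 7.37 CPM in young HFSCs. The EpdSC libraries were near the genome's mean level, and they were 15.1-fold lower than HFSCs in the aged pair and 42.5-fold lower in the young pair (log2 EpdSC over HFSC -5.50, SE 0.403, edgeR adjusted p = 1.96e-40). Between Krtap9-5 and Krtap29-1, chr11:99969501-99970000 held 0.131 CPM in aged EpdSCs, 4.00 CPM in aged HFSCs, 0.214 CPM in young EpdSCs and 3.63 CPM in young HFSCs (-4.94, SE 0.452). In the whole keratin-associated protein block only 8 of 888 windows were tested, of which 4 were called lower in EpdSCs and 1 higher under both scalings. Of all windows tested, 24.5% were called lower and 26.2% higher, or 12.5% and 28.2% with library totals.

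Among the hair keratins Krt33a to Krt36, 10 of 34 tested windows were called higher in EpdSCs and 12 lower (11 and 6 with library totals), so the share called higher was near that of all windows tested (26.2%, or 28.2% with library totals) and the share called lower was above it (24.5%, or 12.5%). The largest of the lower ones, chr11:100076001-100076500 between Krt31 and Krt32, held 0.218 CPM in aged EpdSCs, 3.88 CPM in aged HFSCs, 0.456 CPM in young EpdSCs and 5.39 CPM in young HFSCs (-4.27, SE 0.369). In the same interval chr11:100057501-100058000 held 3.44 CPM in aged EpdSCs, 4.25 CPM in aged HFSCs, 4.47 CPM in young EpdSCs and 13.1 CPM in young HFSCs (-1.65, SE 0.256) and lay in the same open region as the window open in all 4 libraries. Both directions thus occurred in 1 cluster of genes, at separate windows.

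Follicle keratins outside the shaft showed HFSC-accessible windows as well. Between Krt15, the bulge keratin, and Krt19, chr11:100137501-100138000 held 0.828 CPM in aged EpdSCs, 3.64 CPM in aged HFSCs, 1.47 CPM in young EpdSCs and 7.91 CPM in young HFSCs (-2.85, SE 0.283). Within Krt75, the companion layer keratin, chr15:101564001-101564500 held 1.31 CPM in aged EpdSCs, 2.79 CPM in aged HFSCs, 1.15 CPM in young EpdSCs and 8.02 CPM in young HFSCs (-2.73, SE 0.288), a 2.14-fold deficit in the aged pair and 6.90-fold in the young pair. Within Krt71, an inner root sheath keratin, chr15:101736501-101737000 held 0.523 CPM in aged EpdSCs, 3.64 CPM in aged HFSCs, 0.965 CPM in young EpdSCs and 5.69 CPM in young HFSCs (-3.17, SE 0.319).

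Krt6a, a companion layer and stress keratin, had such windows at its end (chr15:101694001-101694500) and between it and Krt5 (chr15:101697501-101698000). The first held 1.57 CPM in aged EpdSCs, 2.55 CPM in aged HFSCs, 0.750 CPM in young EpdSCs and 6.04 CPM in young HFSCs (-2.64, SE 0.310). The second held 1.00 CPM in aged EpdSCs, 3.40 CPM in aged HFSCs, 1.10 CPM in young EpdSCs and 5.77 CPM in young HFSCs (-2.72, SE 0.303). The remaining region of the 8 with the largest HFSC excess lay between Krt19 and Gm39022 (chr11:100155501-100156000; 0.785 CPM in aged EpdSCs, 2.91 CPM in aged HFSCs, 0.965 CPM in young EpdSCs and 4.43 CPM in young HFSCs; -2.64, SE 0.343). In each of these windows both HFSC libraries exceeded both EpdSC libraries.

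The Krt15 gene, used as a bulge marker, showed small differences around its higher-coordinate end. The window that holds this end, chr11:100135501-100136000, held 4.84 CPM in aged EpdSCs, 4.61 CPM in aged HFSCs, 6.11 CPM in young EpdSCs and 8.06 CPM in young HFSCs (-0.79, SE 0.245, edgeR adjusted p = 0.00332). The higher window that starts 52 bases beyond it, chr11:100136001-100136500, held 7.37 CPM in aged EpdSCs, 6.19 CPM in aged HFSCs, 7.56 CPM in young EpdSCs and 8.44 CPM in young HFSCs (-0.59, edgeR adjusted p = 0.0373). By library totals the aged pair pointed the other way in both windows. Its RNA was called at neither age (log2 -0.33 in aged and -0.21 in young mice, edgeR adjusted p = 0.236 and 0.475), at 3857 ± 323 CPM in aged EpdSCs, 5160 ± 95.7 CPM in aged HFSCs, 4712 ± 1146 CPM in young EpdSCs and 5657 ± 1075 CPM in young HFSCs (SD, n = 2 each).

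**Figure D4:**
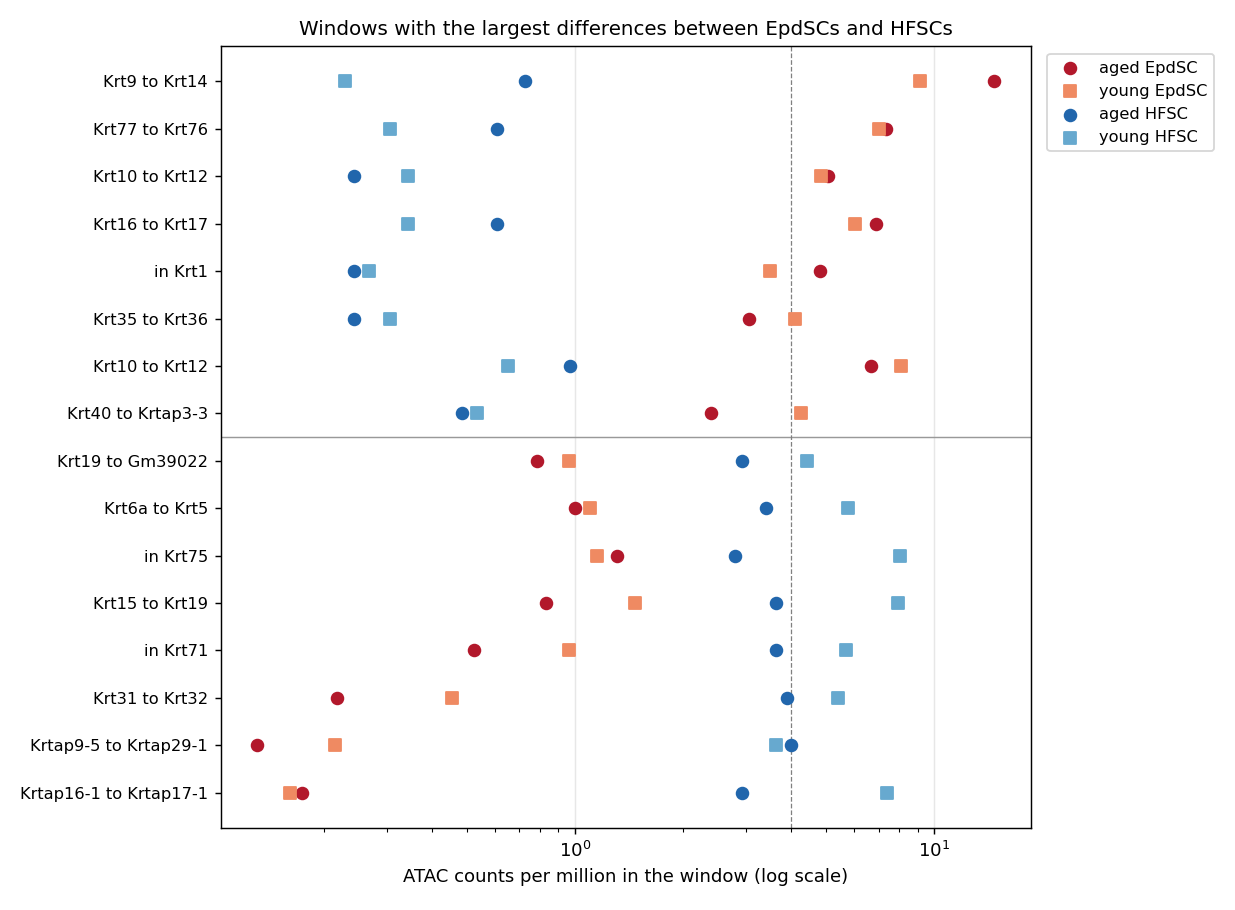
ATAC CPM on a log scale in the windows of the 16 regions with the largest called differences between populations, 8 higher in EpdSCs (above the line) and 8 lower (below it), 1 point per library; the dashed line marks 4 CPM. In each window both EpdSC points lie on one side of both HFSC points, from the window beside Krt14 at the top, 14.7 and 9.14 CPM in EpdSCs, to the window between Krtap16-1 and Krtap17-1 at the bottom, 0.174 and 0.161 CPM in EpdSCs.

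RNA from the same populations was compared next, to set gene output beside the chromatin. Of the 115 genes 98 were listed in the RNA files and 43 passed the low-count filter, among 21464 genes tested. In aged mice 10 of the 43 were higher in EpdSCs (12.2% of all genes tested were) and 7 lower (11.9%), and in young mice 9 were higher (13.0%) and 8 lower (13.1%). Genes with a near-identical neighbour, such as Krt6a and Krt6b or Krt14, Krt16, Krt17 and Krt42, may share reads, so their split is uncertain.

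Keratins of the epidermis made up most of the higher genes. Krt14, Krt5, Krt1, Krt10, Krt77, Krt78 and Krt2 were called at both ages, and so were Krt4 and, from the hair class, Krt32. Krt4 was low, with means of 3.76 CPM in aged EpdSCs, 0.300 CPM in aged HFSCs, 1.74 CPM in young EpdSCs and 0.181 CPM in young HFSCs. Krt80 was called in aged mice and not in young mice (the difference between the ages was not called, edgeR adjusted p = 0.695). Krt14 was at 11715 ± 1870 CPM in aged EpdSCs, 3044 ± 910 CPM in aged HFSCs, 8121 ± 791 CPM in young EpdSCs and 1989 ± 292 CPM in young HFSCs (SD, n = 2 each). The log2 difference was 2.02 in aged mice (SE 0.225, edgeR adjusted p = 4.31e-05) and 2.10 in young mice (SE 0.225, edgeR adjusted p = 2.76e-05). Krt5 was at 6298 ± 271 CPM in aged EpdSCs, 3788 ± 512 CPM in aged HFSCs, 6017 ± 23.0 CPM in young EpdSCs and 3571 ± 233 CPM in young HFSCs, a log2 difference of 0.82 at either age (SE 0.155, edgeR adjusted p = 0.00221 aged and 0.00202 young). Krt5 RNA was thus higher in EpdSCs while the window at its start was not called and the window before it was called lower.

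The suprabasal keratins differed more. Krt1 was at 1204 and 1630 CPM in aged EpdSCs, 63.9 and 76.5 CPM in aged HFSCs, 672 and 778 CPM in young EpdSCs and 2.81 and 18.2 CPM in young HFSCs. The log2 difference was 4.41 in aged mice (SE 0.593, edgeR adjusted p = 0.000185) and 6.17 in young mice (SE 0.652, edgeR adjusted p = 2.53e-05). Krt10 (3.20 aged, 4.61 young) and Krt77 (2.55 aged, 4.21 young) were called in the same direction on the log2 scale. The suprabasal marker list, which holds Krt1 and Krt10 with Ivl, Lor and Flg and has no member at 0, summed to 2343 to 2800 CPM in aged EpdSCs, 195 to 228 CPM in aged HFSCs, 1484 to 1784 CPM in young EpdSCs and 19.7 to 83.9 CPM in young HFSCs. Nearly all of each sum was Krt1 and Krt10 themselves. Of the other members, Ivl was at 8.07 and 9.56 CPM in aged EpdSCs, 6.04 and 5.15 CPM in aged HFSCs, 10.9 and 7.72 CPM in young EpdSCs and 1.60 and 2.98 CPM in young HFSCs. Lor was at 1.78 and 2.33 CPM in aged EpdSCs, 2.23 and 2.16 CPM in aged HFSCs, 0.473 and 1.34 CPM in young EpdSCs and 0.834 and 0.637 CPM in young HFSCs. Flg was at 0.527 and 0.608 CPM in aged EpdSCs, 1.63 and 1.54 CPM in aged HFSCs, 0.111 and 0.368 CPM in young EpdSCs and 0.208 and 0.159 CPM in young HFSCs. Thus Ivl was higher in every EpdSC library than in the HFSC libraries of the same age, Lor overlapped at both ages, and in Flg both aged HFSC libraries stood above both aged EpdSC libraries. The part of more differentiated cells in the result was not tested.

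Most of the lower genes encode keratins of the follicle. Krt75 was at 0.263 and 0.352 CPM in aged EpdSCs, 31.4 and 25.3 CPM in aged HFSCs, 0.111 and 0.301 CPM in young EpdSCs and 42.1 and 43.8 CPM in young HFSCs, a log2 difference of -6.42 in aged and -7.66 in young mice (SE 0.309 and 0.329, edgeR adjusted p = 7.66e-08 and 3.22e-08). Krt6a (-3.48 aged, -4.75 young), Krt28 (-2.66 aged, -2.61 young) and the simple-epithelium keratin Krt8 were also called at both ages. Krt8 was at 0.0160 ± 0.0226 CPM in aged EpdSCs, 5.50 ± 2.98 CPM in aged HFSCs, 0.273 ± 0.228 CPM in young EpdSCs and 2.51 ± 1.02 CPM in young HFSCs (SD, n = 2 each). Krt19 and Krt26 were called in young mice and Krt42 in aged mice, where 1 aged HFSC library held 1.38 CPM and the other 66.0 CPM and the call was lost without the second.

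Krtap17-1 was the 1 keratin-associated protein gene that passed the RNA filter. It had no count in any of the 4 EpdSC libraries, against 3.53 and 4.36 CPM in aged HFSCs and 6.29 and 2.19 CPM in young HFSCs. With 3 counts over the 2 EpdSC libraries of an age as the floor, it was at least 86.1-fold lower in aged and 93.0-fold lower in young EpdSCs (edgeR adjusted p = 0.000164 and 0.000132). The window just before its start (chr11:99994001-99994500) held 0.174 CPM in aged EpdSCs, 1.94 CPM in aged HFSCs, 0.295 CPM in young EpdSCs and 2.83 CPM in young HFSCs (-3.85, SE 0.507). The start windows of Krt75 and Krtap17-1 were no higher than 1.33 CPM in every library and did not pass the filter of the fit.

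**Figure D5:**
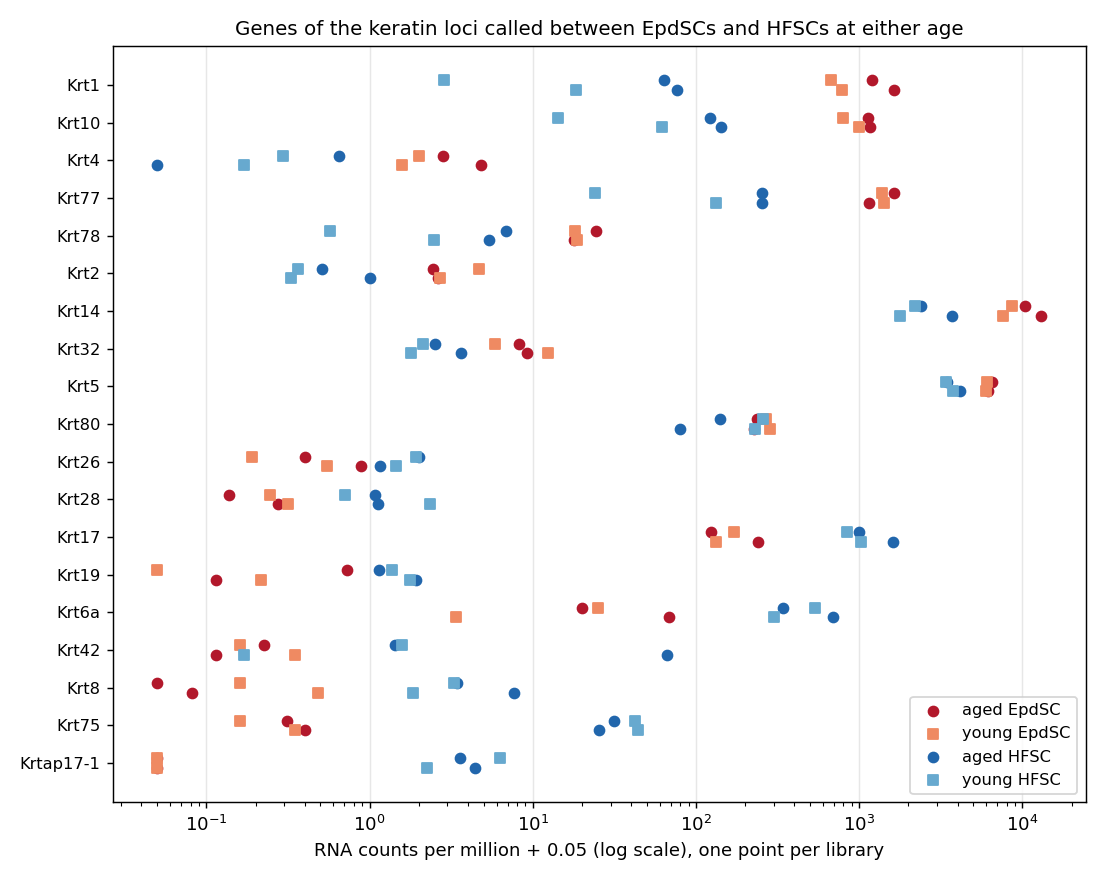
RNA CPM plus 0.05, on a log scale, of the 19 genes of the loci called between EpdSCs and HFSCs at either age, 1 point per library and 2 libraries per group, ordered by the log2 difference. Krt1 at the top lies between 672 and 1630 CPM in EpdSCs and between 2.81 and 76.5 CPM in HFSCs, and Krtap17-1 at the bottom has all 4 EpdSC libraries at 0.

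Accessibility over a gene and 5 kb on either side was then set beside its RNA. Over the 39 keratin and keratin-associated protein genes tested in RNA, the log2 ratio of summed ATAC counts and the log2 RNA difference had Pearson's r = 0.55 and Spearman's rho = 0.50 in aged mice and r = 0.68 and rho = 0.40 in young mice, as a description across genes, whose windows overlap with those of their neighbours and come from the same 4 libraries. Of the RNA-higher genes 8 of 10 in aged and 6 of 9 in young mice had an ATAC ratio above 0, and of the RNA-lower genes 3 of 7 and 4 of 8 had one below 0. Over all 39 genes, 26 were above 0 and 13 below in aged mice (median 0.40), and 28 above and 11 below in young mice (median 0.46). After composition scaling the counts in aged mice were 6 of 10 and 7 of 7, with 6 of all 39 above 0 and 33 below (median -0.66). In young mice they stayed at 6 of 9 and 4 of 8, with 23 of all 39 above 0 and 16 below (median 0.19). The counts by sign therefore followed the scaling in aged mice, while the correlations do not depend on it at either age.

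Genes at which both readouts pointed the same way at both ages included Krt1 (log2 ATAC 2.94 aged, 2.19 young), Krt77 (1.89 and 2.05), Krt14 (1.80 and 0.99), Krt75 (-0.81 and -1.98), Krt6a (-0.83 and -1.84) and Krtap17-1 (-2.90 and -3.14). At other genes they pointed apart by library totals. Krt17, another companion layer and stress keratin, had RNA at 124 and 238 CPM in aged EpdSCs, 991 and 1620 CPM in aged HFSCs, 170 and 132 CPM in young EpdSCs and 838 and 1027 CPM in young HFSCs, and was called lower (-2.78 aged, -2.55 young, edgeR adjusted p = 6.20e-05 and 9.72e-05). Its log2 ATAC ratio was 0.94 in the aged and 1.19 in the young pair, or -0.12 and 0.92 after composition scaling. The window that ends 215 bases below its lower-coordinate end (chr11:100255501-100256000) held 11.2 CPM in aged EpdSCs, 2.55 CPM in aged HFSCs, 8.68 CPM in young EpdSCs and 1.60 CPM in young HFSCs (1.73, SE 0.275). The window that holds that end, chr11:100256001-100256500, held 4.93 CPM in aged EpdSCs, 1.09 CPM in aged HFSCs, 3.54 CPM in young EpdSCs and 0.611 CPM in young HFSCs (1.83, SE 0.360). The window at the other end of Krt17, chr11:100261001-100261500, held 4.93 CPM in aged EpdSCs, 3.64 CPM in aged HFSCs, 5.41 CPM in young EpdSCs and 3.52 CPM in young HFSCs, a log2 difference of -0.02.

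The hair keratin Krt32 gave the reverse pattern. Its RNA was 8.65 ± 0.695 CPM in aged EpdSCs, 3.04 ± 0.800 CPM in aged HFSCs, 9.03 ± 4.58 CPM in young EpdSCs and 1.92 ± 0.235 CPM in young HFSCs, and was called higher (1.59 aged, 2.28 young, edgeR adjusted p = 0.00728 and 0.000795). Its log2 ATAC ratio was -0.41 in the aged and -0.79 in the young pair, or -1.47 and -1.06 after composition scaling. Krt2, a keratin of late suprabasal cells, was likewise called higher in RNA (1.88 aged, 3.69 young) with ATAC ratios of -0.045 in the aged and -0.18 in the young pair, or -1.10 and -0.45 after composition scaling. The window at its start held 0 and 1 counts in the aged and young EpdSC libraries, and 6 and 22 counts in the aged and young HFSC libraries, and did not pass the filter of the fit.

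Age was compared last, within each population. In the 4-library edgeR fit none of the 322 tested windows was called for age (0.0805% of all tested windows were called higher and 0.102% lower), and DESeq2 called none either. Without adjustment, 27 had a p under 0.05, or 8.39%, against 5.22% of all windows, 11 higher and 16 lower in aged cells, and the smallest adjusted p was 0.402.

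In HFSCs, none of the 83 windows with at least 4 CPM at either age was 4-fold higher or lower in the aged library (0% and 2.66% of all), yet all but 1 were below the young library. Their median log2 ratio was -0.94, against -0.9996 over all such windows of the genome, and -0.15 against -0.23 after composition scaling. With that scaling 0 of 94 were past 4-fold in either direction (0.299% and 0.266% of all). In EpdSCs none of 126 windows was 4-fold higher or lower (0.0382% and 0% of all), the median was 0.14 against 0.10 over all, and after composition scaling none of 82 was past it (0.0130% and 0% of all). The lower level of the keratin loci in aged HFSCs was therefore of the size seen across that library, whose depth and low share of counts in open windows cannot be told apart from age.

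In RNA, no gene of the loci was called for age in EpdSCs (edgeR, 0.0559% of all genes higher and 0.0280% lower; 5 of 43 at an unadjusted p under 0.05; 0 by DESeq2). In HFSCs 1 gene was called lower in aged mice (0.0745% of all genes) and none higher (0.294% of all). It was Krt80, an epithelial type II keratin, at 139.5 and 79.7 CPM in aged HFSCs and 255.7 and 228.8 CPM in young HFSCs, a log2 difference of -1.15 (SE 0.202, edgeR adjusted p = 0.0411), and the call was lost without the second aged or the first young HFSC library. The accessible window within Krt80 named above was at 4.49 CPM in the aged and 17.2 CPM in the young HFSC library (log2 -1.92, against the median of -0.9996 over the genome), and the window at its end, chr15:101370001-101370500, at 3.52 CPM in the aged and 7.41 CPM in the young HFSC library (-1.05). The window fit did not call the first for age (log2 -0.66, SE 0.287, edgeR adjusted p = 0.782).

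Several epidermal and upper-follicle keratins had positive differences between aged and young HFSCs that did not pass the test. Krt1 RNA differed by 2.74 on the log2 scale between aged and young HFSCs (SE 0.567, edgeR adjusted p = 0.0806) and Krt10, Krt77, Krt78 and Krt79, a keratin of the upper follicle, by 1.79, 1.68, 2.06 and 1.90 (edgeR adjusted p = 0.181, 0.330, 0.131 and 0.0924). DESeq2 called Krt1 (adjusted p = 0.0261) and Krt78 (adjusted p = 0.000436). The 2 young HFSC libraries differed from each other in these genes, Krt10 for one at 14.2 and 61.9 CPM, against 121 and 142 CPM in the aged pair. The difference of the age effects between populations was called for no gene of the loci by edgeR (0.00466% of all genes were called higher; 9 of 43 at an unadjusted p under 0.05; 0 by DESeq2).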

How the data were processed

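The authors deposited whole-number counts per gene for 8 RNA-seq libraries and whole-number counts per 500-base window, in steps of 250 bases, for 4 ATAC-seq libraries. Tools listed by the submitters' processing notes are STAR, Bowtie and Cell Ranger, with no version or role, and the build is mm10. Duplicate removal, read shifting, the RNA strand setting and the handling of reads with several matches are not stated. Non-overlapping windows (5267565 of 10923515) were used. The keratin windows, gene lists and rules were chosen with earlier results of these data known.

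Windows were tested with edgeR 4.0.16 (R 4.3.3; TMM, mean of at least 1 CPM, age plus population, quasi-likelihood) and genes with edgeR over all 8 RNA libraries (filterByExpr, 1 term per group). Benjamini-Hochberg adjustment ran over all features, and calls needed an adjusted p under 0.05. A standard error (SE) is the log2 difference over the root of F. Pairs of single ATAC libraries have no test: ratios used a pseudocount of 0.5 count, and exact binomial (Clopper-Pearson) intervals cover counting error only, since the counts carry no molecular identifiers. Named are the 10 highest open regions, up to 8 per direction by called population difference, and keratin genes with an open gene-end window or an RNA call; other windows and genes named in the text were chosen after their values were seen. The fits were tested on simulated data. The window fit recovered 19 of 100 population differences of 2-fold and 96 of 100 of 4-fold, with 6 false calls. The RNA fit, for the young populations, recovered 3 of 100 of 2-fold and 61 of 100 of 4-fold, with 3 false calls. The simulations changed far fewer features than were called between populations in the data. Those were 33908 windows higher and 31666 lower, and in young mice 2788 genes higher and 2812 lower. Adjustment was therefore stricter in the simulations, and their recovery rates are not those of the fits to the data. A missing call still does not show that a gene or window was unchanged. The 2 single-cell libraries were not used here.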

Additional observations from a re-analysis of the deposited data

How the results depend on the processing

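The count of windows called between EpdSCs and HFSCs (159) was 86 with DESeq2, 272 with a minimum mean of 0.25 CPM, 27 with no minimum, 137 with library totals, 168 with windows shifted by 250 bases and 188 without the aged HFSC library and the age term, an alternative chosen after seeing the data. None of the 16 windows with the largest differences changed direction, and the 16 lost calls of named windows all came with no minimum, which tests 3295 windows of the loci. The gene-end windows were rerun only as the sum with their neighbours, where all 26 ratios stayed within their counting intervals. Their scaling was not varied there, and at the Krt15 end the aged pair by library totals and the fit pointed apart. Open windows (152) numbered 273 at 2 CPM and 42 at 8 CPM. Windows past 4-fold in the young pair (29) numbered 58 past 2-fold, 70 with at least 2 CPM and 6 with at least 8 CPM. Those in the aged pair (39) numbered 86, 85 and 13 under the same settings and 19 after composition scaling. In the HFSC age pair (0) they numbered 39, all lower, past 2-fold, where 49.9% of all windows were lower, 7 with at least 2 CPM and 1 with shifted windows. The age term of the window fit and the EpdSC age pair gave 0 under every alternative run.

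RNA calls between populations (17 at each age) stayed between 13 and 20 in young and between 14 and 20 in aged mice. Calls for age in HFSCs (1) numbered 3 with DESeq2, 11 with no filter on low counts, 0 with the 4 compared libraries alone and 0 to 5 when each library was left out. They included Krt1, Krt10, Krt77 and Krt78, all higher in aged HFSCs, without young HFSC replicate 2. Krt1 and Krt10 were also called higher without young HFSC replicate 1, and Krt79 on leaving out any EpdSC library. None of these genes was called without aged HFSC replicate 1 or without aged HFSC replicate 2. With no filter there were 5 calls for age in EpdSCs and 10 for the difference of the age effects, which was 0 to 4 on leaving out each library. Replicate numbers from the labels were not taken as pairs, since deviations of same-numbered libraries correlated at -0.08, -0.07, 0.16 and 0.17 in the 4 comparisons. With the number as a replicate block the calls numbered 16 in young and 19 in aged mice between populations and 3 for age in HFSCs (Krt1, Krt79 and Krt80). The causes were not tested. Limits: 1 ATAC library per group leaves age without replication, and 3 counts equal 0.131 CPM in the aged EpdSC and 0.364 CPM in the aged HFSC library, so low windows are least precise in aged HFSCs.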

Other observations

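The interval from Krt80 to Krt7 had 21 open windows of 160, the most of any type II block, and 14 of its 46 tested windows were called higher in EpdSCs and 2 lower (16 and 0 with library totals). Of all windows tested, 26.2% were called higher and 24.5% lower (28.2% and 12.5% with library totals), so the share called higher in this interval was near that of the genome. The block from Krt4 to Krt78, which also holds Krt79, had 14 open windows of 157, with 5 of 28 tested windows called higher and none lower (7 and 0 with library totals), a share called higher below that of the genome. Krt79, a keratin of the upper follicle and sebaceous duct, had RNA at 40.7 ± 24.3 CPM in aged EpdSCs, 72.1 ± 9.23 CPM in aged HFSCs, 22.4 ± 11.0 CPM in young EpdSCs and 19.4 ± 6.38 CPM in young HFSCs (SD, n = 2 each), and it was called between populations at neither age by edgeR (adjusted p = 0.203 aged and 0.716 young).

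The stretch from Krt6b to Krt5 was mixed, with 2 of 21 tested windows called higher in EpdSCs and 8 lower, and 5 higher and 6 lower with library totals. Of all windows tested, 26.2% were called higher and 24.5% lower, or 28.2% and 12.5% with library totals. On the type II side the longest run without an open window covered 129.5 kb (chr15:101564501-101694000) from the accessible window within Krt75 to the end of Krt6a, with no window above 3.25 CPM. This run held 22 of the 25 windows of the type II locus without a count in any library.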
